A study of Arabidopsis thaliana with 4 samples.

Results

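Core and linker histone genes were followed in seeds of Arabidopsis thaliana that had been kept in the dark at 4 °C or at 22 °C. The set was a list of 42 loci for the linker histone H1 and the core histones H2A, H2B, H3 and H4, and a locus counted as measured when the platform annotation paired a probe set with it and with no other gene. By that rule 12 of the 42 genes were measured, out of 13286 genes with such a probe set on the array: 3 of 3 H1 genes, 8 of 10 H2B genes and the centromeric H3 gene HTR12 (CENH3). Each of the 12 had a single such probe set. The other 30 loci, which include all listed H2A, H3.1, H3.3 and H4 genes, had none and are not analysed here as single genes.

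The samples were Ler-0 seeds, stock NW20, with 2 arrays at 4 °C and 2 arrays at 22 °C, called A and B at each temperature after the letters in their titles. All 4 samples spent 96 h in darkness, and the labels give the stage of every sample as dry seeds and name no other treatment, transgene or mutation. Total RNA was labelled with biotin and hybridised to a 22810-probe-set Affymetrix array, and the authors deposited a MAS5 signal, a linear brightness value per probe set. The labels do not state whether A and B were separate batches of seed, and the p-values below therefore rest on the spread between these arrays, which may be technical. The number of arrays limits the precision.

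Nucleosomes wrap DNA around a core of H2A, H2B, H3 and H4, and the linker histone H1 binds where the DNA enters and leaves the core and helps to compact the chromatin. Most core histone genes are transcribed mainly in S phase, when new DNA has to be packed (replication-linked forms, such as H3.1 and H4), whereas replacement forms such as H3.3 are made outside S phase as well and are exchanged into chromatin at transcribed genes. Seed embryos hold compact nuclei with little DNA synthesis, and chromatin opening and the return to the cell cycle are known steps of germination. The comparison of 4 °C with 22 °C addresses how dark chilling, the treatment called stratification, alters seed transcripts relative to a warm dark incubation.

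Signals below were scaled to a trimmed mean of 500 on every array. Differences are on the scale log2(signal + 32), which understates the change of low signals, and are 4 °C minus 22 °C, so that a negative value means a lower signal at 4 °C. Levels are not compared between genes, because each probe set has its own sensitivity. A call is an adjusted p under 0.05 in limma over the 15847 probe sets with a mean signal of at least 64, of which 5.05% were called, 2.71% higher and 2.34% lower at 4 °C. The median difference over those 15847 was -0.13, and it was 0.05 after quantile normalization and 0.03 after median centring, so small differences are to be read relative to it.

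Across the arrays as a whole, replicates were closer at 4 °C (r = 0.937 across probe sets) than at 22 °C (r = 0.778), and no arrays held identical values. Of 11 seed markers 4 were measured. M10, a late embryogenesis abundant gene, had signals of 14071 (A) and 15986 (B) at 4 °C, against 13531 (A) and 10789 (B) at 22 °C, while the oleosin gene OLEO3 had 348.2 (A) and 658.2 (B) at 4 °C, against 1305 (A) and 1838 (B) at 22 °C. The other 2 were called lower at 4 °C, with differences of -5.04 for AT2G42560 and -2.99 for AT3G22490. Of 4 green tissue markers LHCB4.1 was measured, with 289.8 (A) and 214.9 (B) at 4 °C, against 3717 (A) and 3835 (B) at 22 °C, and of 2 root markers EXPA7 was, with a range of 54.5 to 123.8 over the 4 arrays. These transcripts are from whole seeds, so fewer cells of a type and less RNA per cell cannot be told apart.

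Linker histones. The 3 H1 genes had lower signals on both 4 °C arrays than on both 22 °C arrays, and HIS1-3 was the measured histone gene that passed the test. HIS1-3 (AT2G18050) encodes a linker histone whose transcript is known to accumulate under drought and after treatment with abscisic acid. Its signal was 798.6 on 4 °C A and 229.9 on 4 °C B, against 13509 on 22 °C A and 4712 on 22 °C B. The lowest warm signal was thus far above the highest cold one. The difference for HIS1-3 was -4.1, with an SE of 0.728 and a limma adjusted p = 0.0357, with means of 514.2 ± 402 at 4 °C and 9111 ± 6220 at 22 °C (SD, n = 2 each), a mean 17.7 times as high at 22 °C.

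The HIS1-3 signal also differed between replicates, with A above B at both temperatures, 3.47-fold at 4 °C and 2.87-fold at 22 °C. Between arrays of the same letter the difference was -4.03 for A and -4.18 for B, so its size was close in both. HIS1-3 missed the cutoff when the pseudocount was raised to 100 (limma adjusted p = 0.0521). Calls over the whole array then fell from 801 to 226. It also missed the cutoff when probe sets of low signal were kept (limma adjusted p = 0.0687). Only 2 probe sets were called in that setting, so the loss there says little about this gene. Leaving out 4 °C A gave a difference of -4.94, and leaving out 4 °C B gave -3.27. Each of these fits held a lone cold array, so no call is read from them. Over all alternatives the difference stayed between -4.94 and -3.27.

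AT1G06760, an H1 gene, had signals of 1303 (A) and 835.6 (B) at 4 °C, against 2136 (A) and 2338 (B) at 22 °C. Its groups did not overlap, but the difference of -1.07 (SE 0.475) did not pass (limma adjusted p = 0.207). AT2G30620, the other H1 gene, had 549.2 (A) and 432.5 (B) at 4 °C, against 597.2 (A) and 2156 (B) at 22 °C. Here the separation rested on 22 °C B, since 22 °C A lay just above 4 °C A. Its difference of -1.18 (SE 0.646) did not pass either (limma adjusted p = 0.304). Dropping 22 °C A moved the AT2G30620 difference to -2.07, while dropping 22 °C B moved it to -0.28. A lone warm array remained in either fit, so neither is read for a call. The control probe set for 25S ribosomal RNA had a signal of 319.1 on 22 °C B, against 21.7 to 24.4 on the other 3 arrays, and its part in differences that rested on 22 °C B was not tested.

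The median difference of the 3 H1 genes was -1.18, against -0.13 over all probe sets tested, and it ranged from -2.07 to -1.01 with an array left out, the first of these without 22 °C A. Both 4 °C arrays lay below both 22 °C arrays at 31.4% of all probe sets tested, which is the background for the 3 of 3 H1 genes, and both groups were apart in either direction at 57.1%.

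**Figure D1:**
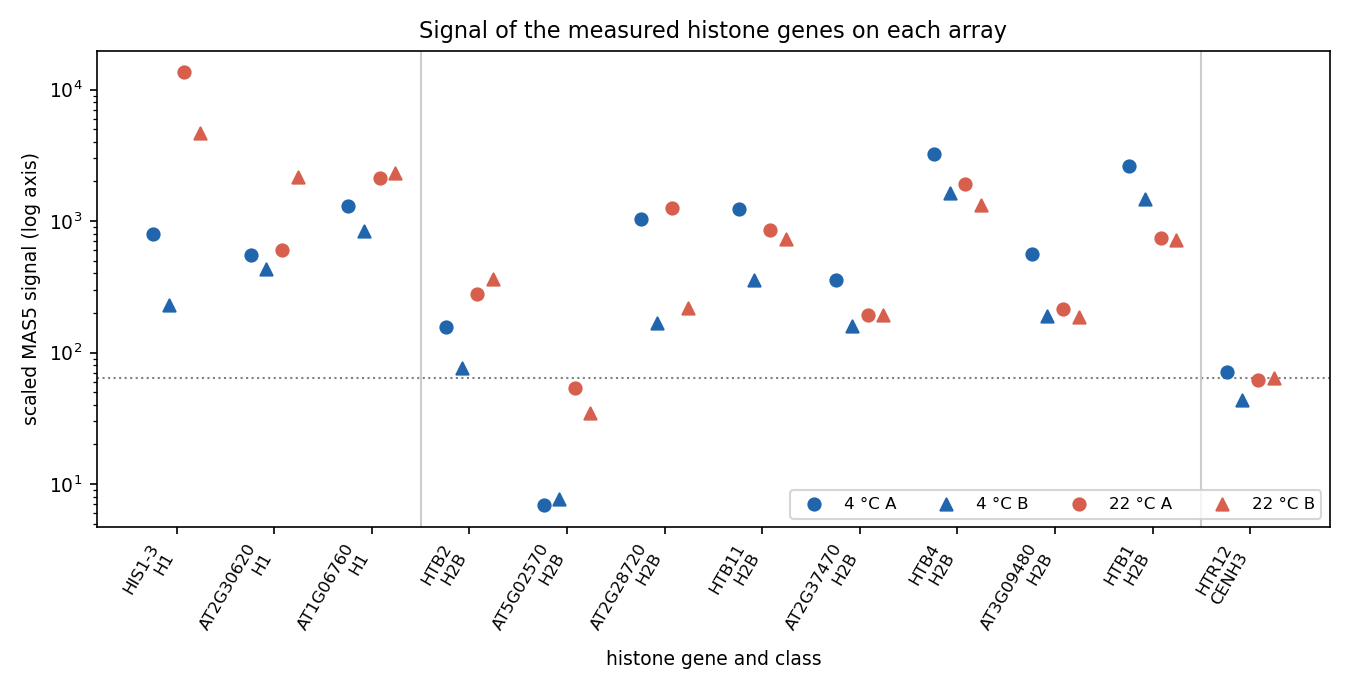
Scaled MAS5 signal (log axis) of the 12 measured histone genes on each of the 4 arrays, with 4 °C arrays in blue, left, and 22 °C arrays in red, right, circles for A and triangles for B. The dotted line marks the signal of 64 that the mean had to reach for the test. HIS1-3 had 229.9 to 798.6 at 4 °C and 4712 to 13509 at 22 °C, while most H2B genes overlapped between temperatures.

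H2B genes. The 8 measured H2B genes, which encode the histone that pairs with H2A in the nucleosome, lay on both sides of 0 and none was called. Of the 7 that passed the filter on low signal, 4 had a positive and 3 a negative difference, with a median of 0.29, against 44.7% of all probe sets with a positive one. Leaving out 4 °C A gave a median of -0.22 and leaving out 4 °C B gave 0.93, so its sign rested on 4 °C A. HTB1 and HTB2 lay at the ends of that range and were, of the 7, those whose temperature groups did not overlap, 2 of 7 against the 57.1% of all probe sets.

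HTB1 (AT1G07790) had signals of 2617 (A) and 1468 (B) at 4 °C, against 748.8 (A) and 711.4 (B) at 22 °C. Both cold arrays were above both warm ones, and the warm arrays were close to each other. The difference was 1.39 (SE 0.495), with means of 2042 ± 812 at 4 °C and 730.1 ± 26.4 at 22 °C (SD, n = 2 each), and did not pass (limma adjusted p = 0.134).

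HTB2 (AT5G22880) had signals of 155.2 (A) and 76.2 (B) at 4 °C, against 279.01 (A) and 364.5 (B) at 22 °C. It lay the other way, with both cold arrays below both warm ones. The difference of -1.3 (SE 0.48) did not pass (limma adjusted p = 0.144), and it ranged from -1.70 to -0.91 with an array left out.

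HTB4 (AT5G59910) had 3241 (A) and 1639 (B) at 4 °C, against 1929 (A) and 1314 (B) at 22 °C, so that 4 °C B lay between the warm arrays. Its difference was 0.53 (SE 0.527, limma adjusted p = 0.579), and leaving out 4 °C A brought it to 0.04, leaving out 22 °C B to 0.25 and leaving out 4 °C B to 1.01. HTB11 (AT3G46030) had 1243 (A) and 354 (B) at 4 °C, against 852.9 (A) and 726 (B) at 22 °C. The cold arrays of HTB11 fell on either side of the warm ones, and its difference was -0.22 (SE 0.629, adjusted p = 0.864), but 0.64 without 4 °C B.

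AT3G09480 had 558.3 (A) and 188.4 (B) at 4 °C, against 214 (A) and 185.9 (B) at 22 °C, and AT2G37470 had 357.9 (A) and 160.5 (B) at 4 °C, against 191.8 (A) and 191.7 (B) at 22 °C. In these H2B genes 4 °C A was above the other 3 arrays, which were close together. Their differences were 0.64 and 0.29 (limma adjusted p = 0.52 and 0.762), and each turned negative without 4 °C A, to -0.07 for AT3G09480 and -0.22 for AT2G37470.

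AT2G28720 was set apart by replicate letter and not by temperature. This H2B gene had 1043 on 4 °C A and 1253 on 22 °C A, against 166.7 on 4 °C B and 217.4 on 22 °C B. A was 6.26 times B at 4 °C and 5.76 times B at 22 °C, while the temperatures differed by -0.29 (SE 0.973, limma adjusted p = 0.884), and by 0.93 without 4 °C B. B was over 2-fold below A at both temperatures for 1.57% of the probe sets tested, and of the histone genes tested for AT2G28720 and HIS1-3.

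The remaining H2B gene, AT5G02570, and HTR12 had mean signals below 64 and were left out of the test. AT5G02570 had 6.90 (A) and 7.65 (B) at 4 °C, against 53.6 (A) and 34.6 (B) at 22 °C. HTR12, which encodes the H3 variant that marks centromeres, had 70.5 (A) and 43.6 (B) at 4 °C, against 62.2 (A) and 64.3 (B) at 22 °C, and its groups overlapped.

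Counted over the 10 histone genes that passed the filter, 0 rose, 1 fell and 9 did not pass. The share called is to be read against 5.05% of all probe sets. No absolute difference under 1.81 was called at any probe set tested, and those of the 9 were smaller. At an unadjusted limma p under 0.05 the count was 3 of 10, with HTB1 and HTB2 beside HIS1-3, against a background of 25.6% over the array. Both 4 °C arrays lay above both 22 °C arrays in 1 of the 10, against 25.7% of all probe sets, and below them in 4, against 31.4%. The median difference was -0.26, but -1.21 without 4 °C A, 0.72 without 4 °C B and 0.09 without 22 °C A, so the array chosen set its sign.

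H3 and H4. Genes for H3.1, H3.3 and H4 encode identical or nearly identical proteins within a class, and the annotation pairs their probe sets with several loci at once. No replacement histone gene had a single-gene probe set, so the replication-linked and replacement forms were compared through these shared probe sets, a choice made after this gap was seen. They were 5 probe sets paired with all 5 H3.1 loci, 5 paired with all 8 H4 loci and 3 paired with all 3 H3.3 loci. By this annotation they stand for a class and not a gene, though signals were not alike within a class. At the H3.1 probe sets the ratio of 22 °C B over 22 °C A ranged from 0.62 to 3.62. Probe sets of a class may also detect the same transcripts, so they are not taken as independent. All 13 passed the filter and none was called, while 1 H3.1 and 1 H4 probe set had an unadjusted limma p under 0.05, 2 of 13 against the same 25.6%.

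H4, the histone that pairs with H3, had lower signals on both 4 °C arrays than on both 22 °C arrays at 4 of its 5 probe sets, against 31.4% of all probe sets tested. At the H4 probe set with the largest difference the signals were 1504 (A) and 571 (B) at 4 °C, against 2733 (A) and 2904 (B) at 22 °C, a difference of -1.57 (SE 0.565, limma adjusted p = 0.137), or -0.89 with 4 °C B left out and -2.24 with 4 °C A left out. The fifth had 1136 (A) and 585.9 (B) at 4 °C, against 884.5 (A) and 690 (B) at 22 °C, and overlapped, with a difference of 0.06. The median over the 5 was -0.84, and it was -0.60 after quantile normalization and -0.69 after median centring.

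H3.1, the replication-linked H3, had a negative difference at all 5 of its probe sets, with a median of -0.57, and non-overlapping temperatures at 1, against 57.1% of all probe sets tested. That probe set had signals of 196.1 (A) and 106.3 (B) at 4 °C, against 360.4 (A) and 905.9 (B) at 22 °C, a difference of -1.77 (SE 0.562, limma adjusted p = 0.104). Dropping 22 °C A moved this difference to -2.40, while dropping 22 °C B moved it to -1.14. These fits also kept a lone warm array and are not read for a call. The H3.1 median was -0.11 when either 22 °C B or 4 °C B was left out, so it rested on those arrays. At another H3.1 probe set the signals were 303.7 (A) and 301.7 (B) at 4 °C, against 290.2 (A) and 1051 (B) at 22 °C. There 22 °C B alone stood apart. It also did in the 25S ribosomal RNA signal, and a link between them was not tested.

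H3.3, the replacement H3, had overlapping temperatures at its 3 probe sets and differences of -0.09, -0.17 and -0.34. The largest of these came from signals of 12965 (A) and 5981 (B) at 4 °C, against 14095 (A) and 8768 (B) at 22 °C (SE 0.51, limma adjusted p = 0.729). At each of the 3 probe sets, B was below A at both temperatures.

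**Figure D2:**
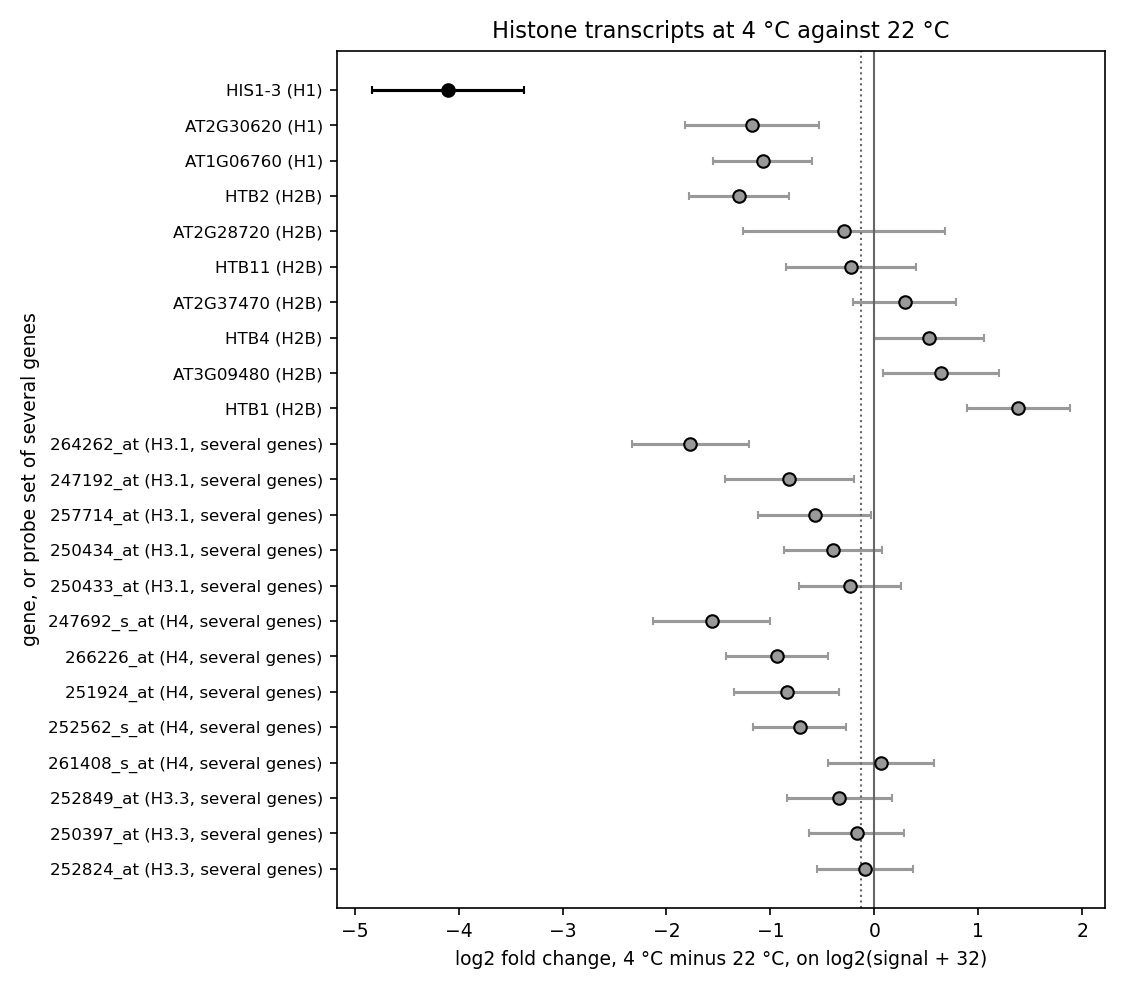
Difference of log2(signal + 32), 4 °C minus 22 °C (horizontal axis), for the 10 histone genes tested and the 13 probe sets paired with several genes of a class. Points are limma estimates with bars of 1 SE, black where called and grey where not, and the dotted line is the median of all probe sets tested, -0.13. HIS1-3 lay at -4.1, HTB1 at 1.39 and the 3 H3.3 probe sets between -0.34 and -0.09.

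The 17 replication-linked probe sets (7 H2B, 5 H3.1 and 5 H4) had a median difference of -0.40, against -0.17 for the 3 H3.3 probe sets, which is -0.23 between the classes, but 0.17 after quantile normalization and 0.11 without 22 °C B. Between arrays of the same letter it was 0.14 for A and -0.52 for B. The difference between the classes was -0.60 with H2B left out and -0.40 for H3.1 alone against H3.3. Among probe sets with a mean signal of at least 500 it was -0.05. Its direction therefore was not settled by these arrays. No test was made of it.

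Each class was also set against its own mean, taking for every probe set its deviation from the mean of its 4 arrays. For H4 the median deviation was -0.11 (A) and -0.74 (B) at 4 °C, against 0.31 (A) and 0.51 (B) at 22 °C, and for H1 it was -0.43 (A) and -0.85 (B) at 4 °C, against 0.47 (A) and 1.3 (B) at 22 °C. These classes separated the temperatures. For H2B the values were 0.75 (A) and -0.39 (B) at 4 °C, against 0.01 (A) and -0.41 (B) at 22 °C, and for H3.3 they were 0.32 (A) and -0.46 (B) at 4 °C, against 0.40 (A) and -0.17 (B) at 22 °C. In H2B and H3.3 array A was above array B at each temperature.

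**Figure D3:**
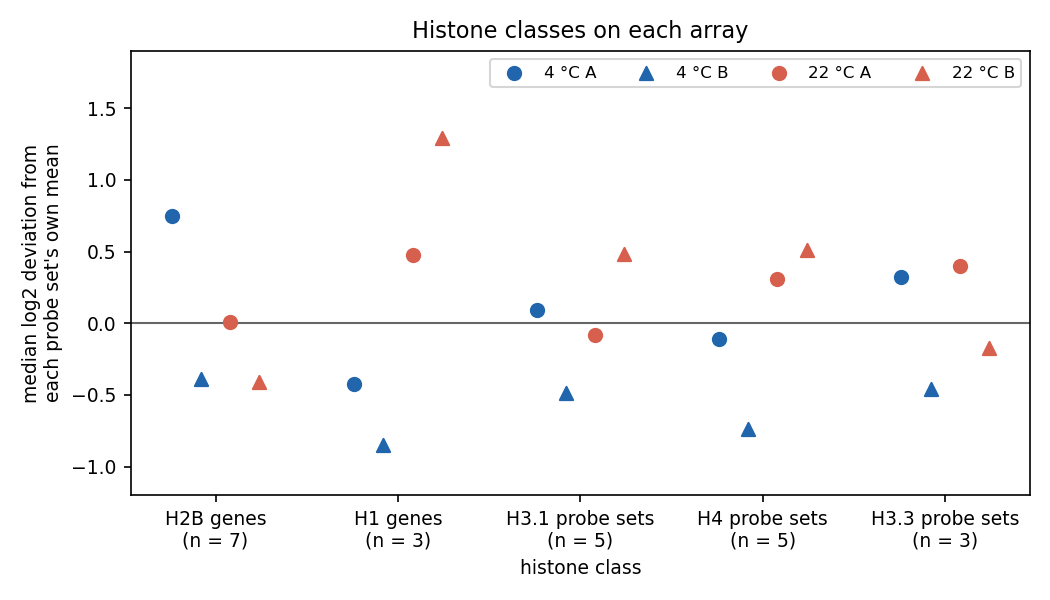
Median log2 deviation of each histone class from the own mean of its probe sets (vertical axis) on each array, with 4 °C arrays in blue, left, and 22 °C arrays in red, right, circles for A and triangles for B. H1 and H4 lay lower on both 4 °C arrays, H3.3 and H2B were lower on B than on A at both temperatures, and H3.1 overlapped.

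Replicates. The warm arrays disagreed on some histone genes and agreed closely on others. At 22 °C, 3 of the 10 genes differed over 2-fold between B and A, against a background of 32% of probe sets: AT2G28720 and HIS1-3 were lower on B, by -2.36 and -1.51, and AT2G30620 was higher on B, by 1.80. HTB1, HTB11, AT2G37470, AT3G09480 and AT1G06760 differed by at most 0.22 between the warm arrays. The H3.1 probe sets were higher on 22 °C B at 4 of 5 and the H4 probe sets at 4 of 5, while all 3 H3.3 probe sets were lower on B.

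At 4 °C the direction was common to the whole set. In all 10 genes tested and all 13 shared probe sets, 4 °C B was below 4 °C A, against a background of 46.7% of all probe sets tested. The median difference, B minus A, was -0.99 for the 10 genes and -0.82 over the 23 histone probe sets, against 0.05 over all probe sets tested. By over 2-fold, 5 of the 10 genes were lower on B, against 6.2% of all probe sets tested: AT2G28720 (-2.44), HTB11 (-1.72), HIS1-3 (-1.67), AT3G09480 (-1.42) and AT2G37470 (-1.02). With 1 array on each side there is no test of these differences. At 22 °C the 23 probe sets were split, 12 lower on B, against 52% of all probe sets tested, and 11 higher, with a median of 0.00 against -0.05 over all probe sets tested.

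Spike-in controls also moved with the letter. The 18 probe sets for spiked-in bacterial and phage transcripts all had less signal on B at both temperatures, with a median log2 ratio of B over A of -1.34 at 4 °C and -1.60 at 22 °C. The ratio of 3-prime to 5-prime signal, a measure of RNA or labelling quality, was higher on B than on A in 5 of 6 control pairs at 4 °C and in 5 of 6 at 22 °C. For a ubiquitin pair it was 1.19 (A) and 1.86 (B) at 4 °C, against 1.18 (A) and 1.37 (B) at 22 °C. The exception was a pair for GAPDH, with 1.01 (A) and 0.64 (B) at 4 °C, against 1.46 (A) and 0.68 (B) at 22 °C, while the other GAPDH pair had 0.956 (A) and 1.12 (B) at 4 °C, against 0.945 (A) and 1.02 (B) at 22 °C. The part of these in the histone differences was not tested.

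**Figure D4:**
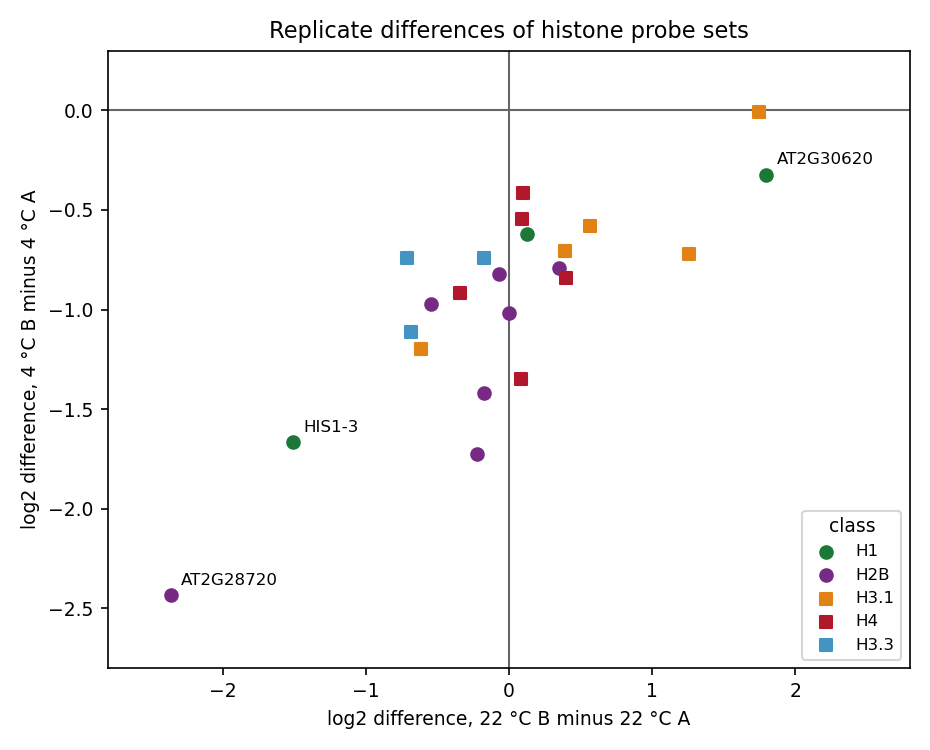
Difference of log2(signal + 32) between replicates, B minus A, at 4 °C (vertical axis) and at 22 °C (horizontal axis) for the 10 histone genes tested (circles) and the 13 probe sets paired with several genes (squares), coloured by class. All 23 lay below 0 at 4 °C, and 12 of 23 lay below 0 at 22 °C.

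Related genes. Histone chaperones carry histones to DNA, and 4 of 24 listed chaperone and deposition loci were measured and passed the filter. None was called (1 of 4 at an unadjusted limma p under 0.05, against 25.6% of all probe sets), and all 4 had a positive difference, against 44.7% of all probe sets, with a median of 0.44. The largest was at AT4G37210, with 2103 (A) and 1592 (B) at 4 °C, against 849 (A) and 643.4 (B) at 22 °C (difference 1.27, SE 0.469, limma adjusted p = 0.144). Its groups did not overlap, and the A and B pairs gave 1.28 and 1.27. Temperatures were apart at 2 of the 4 loci, against 57.1% of all probe sets tested. At the other 2, ASF1B and ATRX, the differences were 0.13 and 0.26. These changed sign between the letters, with 1.26 (A) and -0.99 (B) for ASF1B and -0.50 (A) and 1.01 (B) for ATRX.

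DNA replication and S phase genes, whose transcripts usually accompany those of the replication-linked histones, were measured at 3 of 25 loci. None was called, also at an unadjusted limma p under 0.05 (0 of 3, against 25.6% of all probe sets). The temperatures overlapped at all 3, while 57.1% of all probe sets had temperatures apart, and the median was 0.52. AT5G26680 had 510.1 (A) and 460.6 (B) at 4 °C, against 502.1 (A) and 161.6 (B) at 22 °C (difference 0.68, SE 0.568, limma adjusted p = 0.498). The difference became 1.42 without 22 °C A and -0.05 with 22 °C B left out. The lists of mitosis and cyclin genes (9 loci) and of histone modifying enzymes (19 loci) had no single-gene probe set and were not analysed here.

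Of 7 further loci listed as histone genes outside the set of 42, 5 were measured, 2 passed the filter and none was called (1 of 2 at an unadjusted limma p under 0.05, against 25.6% of all probe sets). AT1G08170 had 177.5 (A) and 161.4 (B) at 4 °C, against 1550 (A) and 313.7 (B) at 22 °C. Both warm arrays were above both cold ones, and 22 °C A was far above the other 3. The difference of -1.88 (SE 0.706) did not pass (limma adjusted p = 0.149), and it was -0.78 without 22 °C A and -2.97 with 22 °C B left out. MGH3, known as a histone H3 gene of male gametes, had 72 (A) and 85.4 (B) at 4 °C, against 72.6 (A) and 93.3 (B) at 22 °C.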

How the data were processed

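The authors deposited one linear intensity per probe set and array, which the submitters' processing notes attribute to MAS5; the software version, background correction and build used were not given in the sources used here. The deposited 2% trimmed means were 100 on every array, as found from the values, and each array was scaled to 500. The 64 control probe sets and probe sets with a mean signal under 64 were left out. Values were tested as log2(signal + 32) with limma 3.58.1 in R 4.3.3 (lmFit, eBayes with trend, no covariate, 4 arrays), with Benjamini-Hochberg adjustment over 15847 probe sets, and the fit was tested on simulated data. Genes came from the platform annotation, matched to the RefSeq table of TAIR10.1. All 12 measured genes matched, 6 by symbol and 6 by locus alone. The annotation lists 13513 probe sets under a single gene, 503 under several genes and leaves 8730 unlisted.

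Members, gene lists and tests were chosen with earlier results of these data known. Every measured member is named, and of each other list the genes called or else the one with the largest absolute difference. The probe sets paired with several genes were added after the data were seen. The planned contrast of replication-linked with replacement genes could not be made with single-gene probe sets. Alternatives were other pseudocounts, filters, normalizations and variance models, the replicate letter as a block and each array left out.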

Additional observations from a re-analysis of the deposited data

How the results depend on the processing

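Against 801 probe sets called (430 higher, 371 lower at 4 °C), a pseudocount of 100 gave 226 (139, 87), no filter 2 (1, 1) and a filter at 200 gave 1266 (700, 566). Median centring called 669 higher and 459 lower. Leaving out an array gave 1 to 4142 calls, with a lone array assumed to vary like the other pair. The replicate block, on the letters A and B, gave 2879 (1256, 1623); whether the letters mark a shared batch is not stated, and B minus A at 4 °C and at 22 °C had r = 0.209 across probe sets. Under the replicate block 1 histone gene was called (HIS1-3, adjusted p = 3.96e-05), and AT1G08170 (0.0199) and the H3.1 probe set with the largest difference (0.0247) passed.

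The count of histone genes called, 1 as reported, fell to 0 when the pseudocount was 100 and when probe sets of low signal were kept. Calls over the whole array fell as well, from 801 to 226 and to 2, so these counts moved with the background. Leaving out an array left 1 array in a group, so no count of histone genes is given for those fits. With an array left out, the median ranged from -1.21 to 0.72 for the histone genes, from -0.22 to 0.93 for H2B, from -2.07 to -1.01 for H1, from -0.82 to -0.11 for H3.1, from -1.21 to -0.51 for H4 and from -0.54 to 0.22 for H3.3. The difference between replication-linked and H3.3 probe sets, -0.23, was 0.17 after quantile normalization, -0.60 with H2B left out and -0.44 to 0.11 with an array left out. It was -0.05 among probe sets with a mean signal of at least 500. H2A.X and H2A.W could not be moved between classes, since none was measured. The cause of these shifts was not tested.

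Some uncalled differences changed sign with an array left out. They ranged from -1.51 to 0.93 for AT2G28720, from -0.22 to 0.80 for AT2G37470, from -1.09 to 0.64 for HTB11, from -0.071 to 1.35 for AT3G09480 and from -0.048 to 1.42 for AT5G26680. Among the shared probe sets they ranged from -0.40 to 0.52 for the H4 probe set with a positive difference and from -0.89 to 0.22 for the H3.3 probe set with the largest one. No measured gene had a second single-gene probe set to average, and with 2 arrays a group, deviating arrays cannot be tested.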

Other observations

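In the RefSeq table of TAIR10.1, 5 of the 8 measured H2B genes lay within 10 annotated genes of another listed histone gene. AT5G02570 was next to the H2A gene HTA12, with 0 genes between, 3 genes separated HTB1 from the H4 gene AT1G07820, and 2 separated AT2G28720 from the H4 gene HIS4. HTB4 had HTA6 on one side, with 5 genes between, and the H4 gene AT5G59970 on the other, with 7 between, and 5 genes separated HTB11 from HTB9. The neighbours were not measured by single-gene probe sets, so these data do not show whether neighbouring histone genes changed together.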
